A study of Mus musculus with 12 samples.

Results

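Hdc encodes histidine decarboxylase, the enzyme that makes histamine from the amino acid histidine. It is 1 of 6786 genes named on a spotted array and was measured here in mouse kidney cortex by 3 of the array's 15600 probes, all those annotated to Hdc, which lies on chromosome 2. The probes are cDNA clones, named here BG072394, BG072171 and CK335059 after their GenBank entries. Each clone was spotted as 2 adjacent copies. Hdc was chosen with its differences between the groups in these data known, so every menopausal against control value below is a description and no test is read from it.

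The menopausal group is 3 numbered kidney cortex samples of mice whose treatment the labels give as VCD. VCD is the usual abbreviation of vinylcyclohexene diepoxide, given to mice to destroy small ovarian follicles. The control group is 3 numbered kidney cortex samples of mice given as control. Strain, sex, age, the timing of treatment and any pooling of mice within a cortex sample are not stated in what was used here, so the spread measured is that between these samples. RNA of 2 samples was hybridised together on each of 12 arrays, 1 in Alexa Fluor 546 and 1 in Alexa Fluor 647, and each sample was on 4 arrays.

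Histidine decarboxylase needs the cofactor pyridoxal phosphate, a form of vitamin B6, to remove the carboxyl group of histidine. Histamine is then cleared by methylation or by oxidation. The enzyme is known from mast cells, basophils, stomach and brain, and the mouse kidney also holds it. In the mouse kidney its activity rises in pregnancy and responds to sex hormones and thyroid hormone, in ways that differ between strains.

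The 250 bases before the RefSeq start of Hdc are shown because all 3 clones are annotated to the gene that this sequence precedes. They are chr2:126618679-126618928 on the minus strand of GRCm38.p6, taken from RefSeq and written 5′ to 3′ in the direction of the gene.
Hdc: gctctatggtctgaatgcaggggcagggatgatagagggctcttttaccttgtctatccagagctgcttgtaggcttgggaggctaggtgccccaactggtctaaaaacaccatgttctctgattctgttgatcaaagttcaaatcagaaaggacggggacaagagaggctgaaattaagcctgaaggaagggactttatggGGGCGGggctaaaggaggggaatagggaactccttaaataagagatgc
The capitals mark the only match among the motifs searched on both strands, a GC box (GGGCGG) whose first base lies at -48 from the start. Of 32851 promoter windows of the same length, 32.7% hold this motif. The window holds no TATA box (TATAAA, in 12.4% of windows) and no GGTCA, the core of hormone response elements (in 35.2%). It therefore also lacks a palindromic oestrogen response element (in 0.064%) and a direct-repeat thyroid hormone response element (in 0.015%), both of which contain that core. It holds no androgen or glucocorticoid response element (in 0.387%). A match describes the letters of this window, and no match says only that they are not in it.

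All 3 clones were measurable in both groups. A clone counts as above background in a channel when its signal exceeds the local background by over 2 background SDs, and each group has 12 such measurements. BG072394 was above background in 10 menopausal and 9 control measurements. BG072171 was above background in 10 measurements of each group and CK335059 in all 12 of each. On the array of Menopausal 1 with Control 2, BG072394 and BG072171 were above background in neither channel. The array of Control 2 with Control 3 did not show BG072394 in either channel.

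The sample values are on a log2 scale centred on the 6 cortex samples and come from a fit with a dye term to the 12 arrays. BG072394 was at -0.17, -0.52 and -0.30 in Menopausal 1, 2 and 3, against 0.13, 0.28 and 0.59 in Control 1, 2 and 3. The technical standard error of each of these values, from repeat arrays of the same RNA, was 0.0969. Every menopausal sample lay below every control sample, with a gap of 0.30 between the nearest members of the groups. The means were -0.33 ± 0.18 in menopausal samples and 0.33 ± 0.23 in control samples (SD, n = 3 each). Their difference of -0.66 ± 0.15 (SE from limma) corresponds to a level 36.9% lower in menopausal samples.

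BG072171 was at -0.17, -0.11 and -0.43 in Menopausal 1, 2 and 3, against 0.13, 0.29 and 0.29 in Control 1, 2 and 3. The groups again did not overlap, with a gap of 0.23. The means were -0.24 ± 0.17 in menopausal samples and 0.24 ± 0.09 in control samples (SD, n = 3 each), a difference of -0.47 ± 0.12. On this clone the level was 27.9% lower in menopausal samples. Groups that do not overlap, with menopausal samples lower, were found at 436 of the 7683 probes measured (5.67%), and with menopausal samples higher at 574 (7.47%). Between the groups limma called 0 probes at an adjusted p of 0.05 (0.00%), with 577 at an unadjusted p under 0.05. These shares are background only, since Hdc was chosen on this contrast.

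CK335059 did not show the difference. It was at 0.29, -0.26 and 0.00 in Menopausal 1, 2 and 3, against -0.15, 0.30 and -0.18 in Control 1, 2 and 3. The groups overlapped over most of their range, with Menopausal 1 and Control 2 high and Menopausal 2 and Control 3 low. The means were 0.01 ± 0.28 in menopausal samples and -0.01 ± 0.27 in control samples (SD, n = 3 each), and the difference was 0.02 ± 0.18. This clone had the widest spread within groups of the 3, a pooled SD of 0.271, against 0.208 for BG072394 and 0.139 for BG072171.

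**Figure D1:**
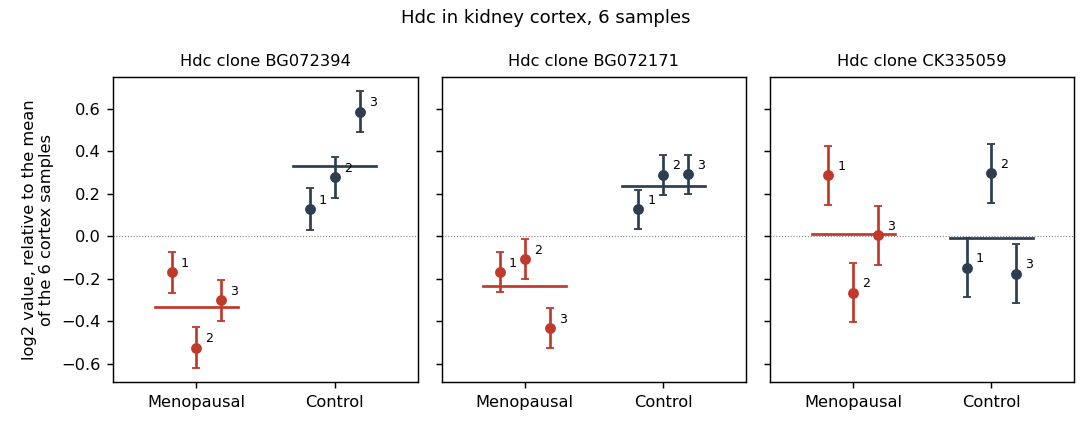
The log2 value of each Hdc clone in each cortex sample, centred on the 6 samples. Points are samples with their number, bars are the technical standard error from repeat arrays and horizontal lines are group means. For BG072394 and BG072171 the 3 menopausal samples lie below the 3 control samples, and for CK335059 the groups overlap.

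The difference between groups rests on the 6 arrays that set a menopausal against a control sample, because in this balanced layout the fitted difference equals their mean ratio. Each menopausal sample met 2 control samples there, once in each dye. For BG072394 the log2 ratio of menopausal over control was -0.997 for Menopausal 1 over Control 3, -0.37 for Menopausal 1 over Control 2 and -0.79 for Menopausal 2 over Control 1. It was -0.81 for Menopausal 2 over Control 3, -0.30 for Menopausal 3 over Control 1 and -0.72 for Menopausal 3 over Control 2. The menopausal sample was thus lower on 6 of 6 arrays, including that of Menopausal 1 with Control 2, where this clone was above background in neither channel.

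For BG072171 the ratios were -0.41 for Menopausal 1 over Control 3, -0.38 for Menopausal 1 over Control 2 and -0.29 for Menopausal 2 over Control 1. They were -0.37 for Menopausal 2 over Control 3, -0.43 for Menopausal 3 over Control 1 and -0.95 for Menopausal 3 over Control 2. The menopausal sample was lower on 6 of 6 arrays here too, and 5 of the 6 ratios lay within -0.43 to -0.29. Of all 7683 probes, 96 (1.25%) were lower in the menopausal sample on all 6 of these arrays. BG072171 was above background in neither channel on the array of Menopausal 1 with Control 2. On that of Menopausal 3 with Control 1 it was not above background in Control 1.

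CK335059 had ratios of 0.51, 0.07 and 0.42 for Menopausal 1 over Control 3, Menopausal 1 over Control 2 and Menopausal 2 over Control 1. Its ratios were -0.21, -0.22 and -0.47 for Menopausal 2 over Control 3, Menopausal 3 over Control 1 and Menopausal 3 over Control 2. The menopausal sample was lower on 3 of 6 arrays, and on 1 of 6 with print-tip loess (loess fitted within each block of spots). Both arrays of Menopausal 1 were positive. Both arrays of Menopausal 3 were negative, but with print-tip loess Menopausal 3 over Control 1 was at 0.051.

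**Figure D2:**
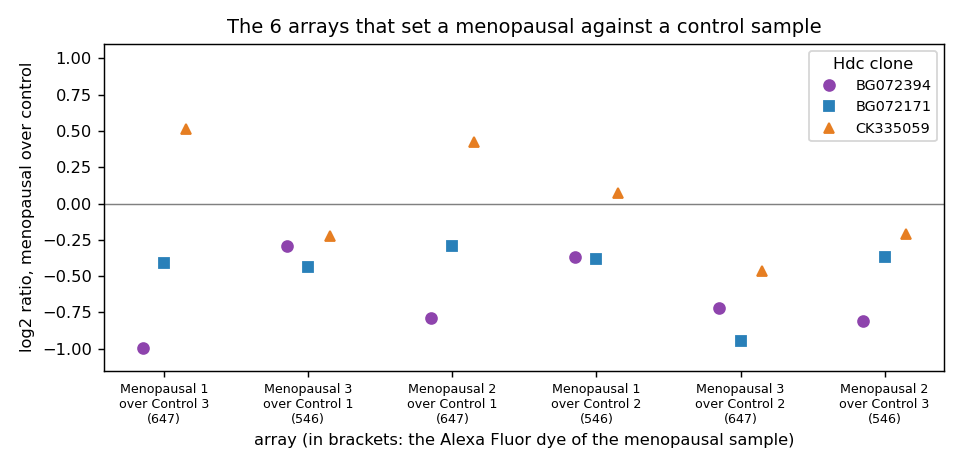
The log2 ratio of menopausal over control on each of the 6 arrays across groups, for the 3 Hdc clones, with the dye of the menopausal sample in brackets. BG072394 (-0.997 to -0.30) and BG072171 (-0.95 to -0.29) are below 0 on every array shown, and CK335059 lies on both sides of 0.

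The 2 dyes gave the same direction for the concordant clones. With the menopausal sample in Alexa Fluor 647 the mean ratio was -0.84 for BG072394 and -0.55 for BG072171, and with it in Alexa Fluor 546 the means were -0.49 and -0.39 (3 arrays each). For CK335059 these means were 0.16 and -0.12. The dye term itself, Alexa Fluor 647 over Alexa Fluor 546, was -0.14 ± 0.07 for BG072394, -0.03 ± 0.06 for BG072171 and 0.25 ± 0.09 for CK335059. None of the 3 passed in limma's test over all probes (adjusted p = 0.115, 0.716 and 0.0653), while 27.2% of all probes did.

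The adjacent copies of a clone differed little. The median gap between the copies' log2 ratios over the 12 arrays was 0.077 for BG072394, 0.067 for BG072171 and 0.029 for CK335059, against 0.059 over all measured probes. The widest gap, 0.51 for BG072171, was on the array of Menopausal 1 with Control 2, where that clone was not above background.

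Differences among samples of the same group were not used in choosing Hdc and could be tested over the 12 arrays (moderated F statistic of limma). Among the menopausal samples the range was 0.35 for BG072394, 0.33 for BG072171 and 0.55 for CK335059, and none passed (limma, adjusted p = 0.522, 0.522 and 0.498). Among the control samples the range was 0.46 for BG072394, 0.16 for BG072171 and 0.47 for CK335059, and again none passed (limma, adjusted p = 0.326, 0.761 and 0.470). Of all probes 0.195% passed among menopausal samples and 0.833% among control samples. The error in this test comes from repeat arrays and is technical.

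The clones agreed in pairs to different degrees. BG072394 and BG072171 had log2 ratios of the same sign on 9 of 12 arrays, with a Pearson r of 0.825 over the 6 sample values. Once each group's mean was taken out, r was 0.116. With print-tip loess both were higher, 0.942 and 0.732. CK335059 shared the sign of BG072394 on 6 and of BG072171 on 5 of 12 arrays, with r of 0.098 and -0.017 over the 6 samples. These points share arrays and normalization, and the values are descriptions.

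Among 123 genes with exactly 3 measured clones, the differences of a gene's clones spanned 0.20 in the median, against 0.68 for Hdc, and no other gene spanned more. With print-tip loess the spans were 0.64 for Hdc and 0.12 in the median, and again no other gene spanned more. Hdc was chosen with these differences known, so its place among the genes is a description. The annotation that ties the clones to Hdc comes from the array's platform record, and no clone sequence was used here, so whether CK335059 reports the same transcripts was not tested.

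**Figure D3:**
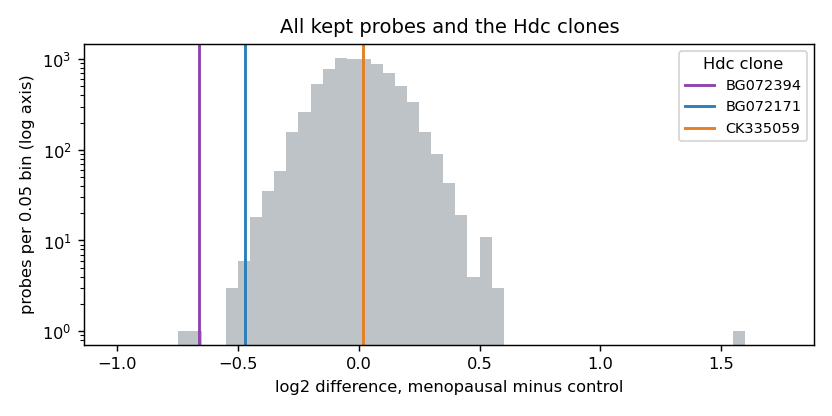
The log2 difference of menopausal minus control for all 7683 measured probes (grey bars, in bins of 0.05, with a log axis of counts) and the 3 Hdc clones as vertical lines. BG072394 (-0.66) and BG072171 (-0.47) lie in the lower tail and CK335059 (0.02) at the centre.

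Across all probes the group difference varied over the slide, and the Hdc clones lie apart on it. BG072394 lies in the third of 12 columns of blocks, where the median difference of all probes was -0.10, BG072171 in the ninth, at 0.05, and CK335059 in the tenth, at 0.08. Print-tip loess brought these 3 column medians to between -0.0007 and 0.0020. With it, BG072394 was at -0.60 ± 0.13, BG072171 at -0.47 ± 0.11 and CK335059 at 0.04 ± 0.17. BG072394 was then at -0.08, -0.34 and -0.47 in Menopausal 1, 2 and 3, against 0.11, 0.30 and 0.48 in Control 1, 2 and 3. The groups of both concordant clones still did not overlap, as with 5.86% of all probes, and both were lower on 6 of 6 arrays across groups, as with 1.46%.

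Without subtraction of the local background, BG072394 was at -0.26 ± 0.08 and BG072171 at -0.14 ± 0.06, so the size of the difference depends on that step. The direction of both clones was the same under every alternative tried, and in each of the 31 that give sample values their groups did not overlap. For alternatives that do not alter the ratios of the arrays across groups, the difference is the same by construction. The sign of CK335059 varied with the sample or array left out. It was also negative with the spot mean (-0.0085) and without background subtraction (-0.011).

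**Figure D4:**
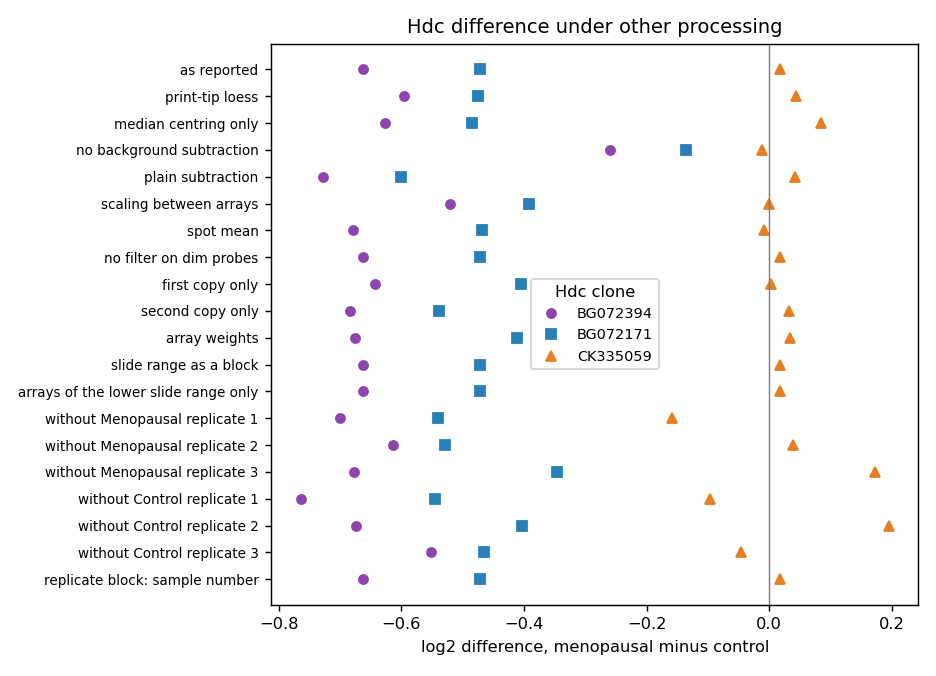
The log2 difference of menopausal minus control for each Hdc clone as reported and under other processing, including each cortex sample left out. BG072394 runs from -0.76 to -0.26 and BG072171 from -0.60 to -0.14, while CK335059 lies between -0.16 and 0.20.

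The profiles most like that of each clone over the 6 samples were named by Pearson r among measured probes of other genes. For BG072171 they were Elp2, a subunit of Elongator (r = 0.985), Shroom3, a regulator of apical actin (0.976), the phospholipase gene Ddhd1 (0.972), U2surp, which encodes a U2 snRNP-associated protein (0.968), and Fancg of the Fanconi anaemia core complex (0.966). Of these, Shroom3 kept its r with print-tip loess (0.977), while the others were at 0.750 to 0.868. The difference of menopausal minus control was -0.30 for Elp2 and -0.17 for Shroom3, against -0.47 for BG072171. The 6 values of BG072171 and BG072394 differed mainly between the groups. A high r with them therefore largely reflects the contrast on which Hdc was chosen. Among all other measured probes, with or without a symbol, BG072394 ranked 353 in likeness to BG072171, and BG072171 ranked 362 in likeness to BG072394.

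For BG072394 the most similar profiles were the lysosomal beta-galactosidase gene Glb1 (r = 0.984), Tram2 (0.983), the protease inhibitor gene Serpinb9 (0.982), the homeobox gene Meis2 (0.981) and Fam241b (0.979). Glb1, Tram2 and Meis2 lie in the first column of blocks. With print-tip loess r was 0.744 for Glb1, -0.176 for Tram2, 0.610 for Serpinb9, -0.134 for Meis2 and 0.957 for Fam241b. For CK335059 they were 1600010M07Rik (0.997), Arap1, a GTPase-activating protein gene (0.989), Stam2, of endosomal sorting (0.989), Basp1 (0.988) and Snrpe, of the spliceosome (0.986), all within 0.06 of 0 in the group difference. Each of these genes was picked over 6 points from the measured probes with 1 symbol, which number 5559 with the Hdc clones included.

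Other genes around histamine were few on the array. Of 15 genes of histamine breakdown, transport and reception, 2 were on the array and measured, and both had positive differences with a median of 0.08, against -0.004 over all probes. Aldh2, an aldehyde dehydrogenase that can oxidise the aldehyde left by amine oxidases, was at 0.13 ± 0.09, and Maoa, monoamine oxidase A, at 0.04 ± 0.10. Their groups overlapped and neither passed. With print-tip loess the difference of Aldh2 was 0.12 and its groups did not overlap. Such groups with menopausal samples higher were found at 7.47% of all probes before print-tip loess, a share not counted with it. Aldh2 was above background in 6 of 12 measurements of each group, the least that the filter allows. The histamine receptors, the histamine methyltransferase gene and the diamine oxidase gene had no named probe here.

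Of 14 genes that handle histidine, 6 were measured. Menopausal samples were higher for 2 and lower for 4, the median was -0.10 (-0.05 with print-tip loess), and 0 passed. Hars, the cytosolic histidyl-tRNA synthetase gene, was at -0.19 ± 0.09, or -0.04 after print-tip loess. Slc3a2, the heavy chain of amino acid exchangers, was at -0.18 ± 0.18. The histidine and peptide transporter gene Slc15a4 was at -0.11 ± 0.11 and Cndp2, a dipeptidase gene, at -0.08 ± 0.18. The groups of all 6 overlapped.

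Of 15 genes of other vitamin B6 decarboxylases, their regulators and the supply of the cofactor, 7 were measured, 3 higher and 4 lower, with a median of -0.13 (-0.05 with print-tip loess) and 0 passing. Odc1, the ornithine decarboxylase of polyamine synthesis, was at -0.23 ± 0.20 (-0.03 at its second clone), and Oaz1, the antizyme that turns it over, at -0.24 ± 0.20. Odc1 was at -0.03, 0.16 and -0.48 in Menopausal 1, 2 and 3, against -0.03, 0.15 and 0.23 in Control 1, 2 and 3. Menopausal 3 stood lowest and the groups otherwise overlapped. Azin2, an antizyme inhibitor gene, was at -0.18 ± 0.12 (-0.05 with print-tip loess), and Pdxk, the pyridoxal kinase that makes the cofactor, at -0.13 ± 0.16. Its other 2 clones were at -0.13 and 0.14.

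Hormone genes were measured for reference, since the kidney enzyme responds to hormones. Of 18 sex hormone genes of the mouse kidney, 4 were measured, 2 higher and 2 lower, with a median of 0.01 (-0.03 with print-tip loess) and 0 passing. Ltf, the lactoferrin gene that oestrogen induces in the uterus, was at 0.14 ± 0.11 (-0.0050 with print-tip loess), and Gusb, the beta-glucuronidase that androgen raises in mouse kidney, at 0.06 ± 0.11. Esr1, the oestrogen receptor alpha gene, was at -0.04 ± 0.11 (-0.13 with print-tip loess). Cyp7b1, an oxysterol hydroxylase gene, was at -0.13 ± 0.08 (-0.05 with print-tip loess). It was above background in 2 of 12 menopausal and 7 of 12 control measurements, so it passed the filter of 6 measurements only through the control group. Of 10 thyroid hormone genes, 2 were measured and both had negative differences, Klf9, a transcription factor gene, at -0.11 ± 0.17 and Me1, malic enzyme, at -0.06 ± 0.20, with 0 passing. The other 2 measured clones of Me1 were at 0.16 and -0.12.

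**Figure D5:**
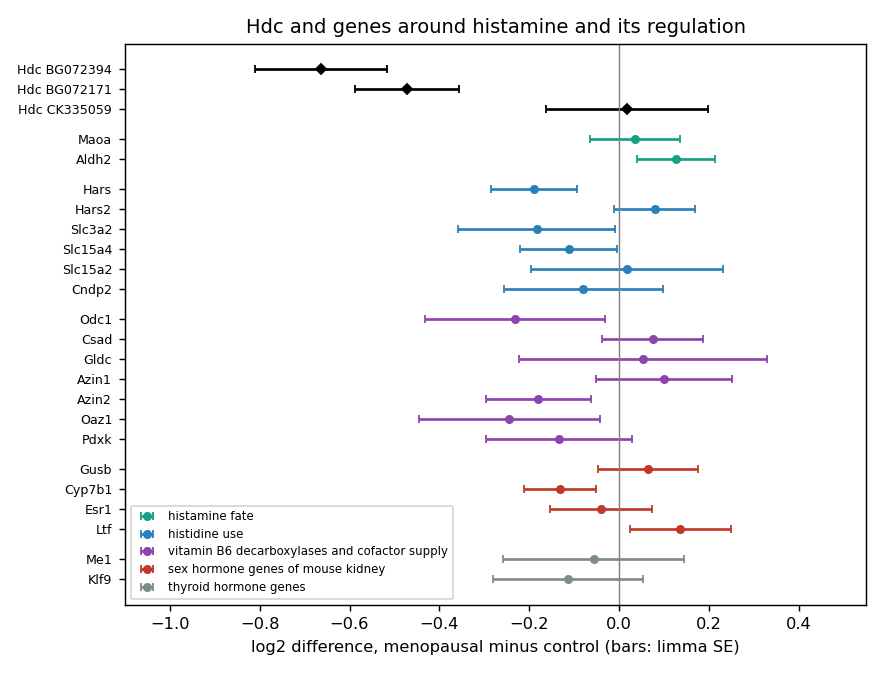
The log2 difference of menopausal minus control with its limma standard error for the 3 Hdc clones and for the measured genes of 5 lists, each gene by its brightest probe. BG072394 (-0.66) and BG072171 (-0.47) lie below all list genes, whose differences run from -0.24 to 0.14, and CK335059 (0.02) lies within that range. Hdc was chosen on this contrast, so its place beside the list genes is a description.

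Hdc RNA in a tissue can come from mast cells as well as from tubule cells, and in bulk RNA fewer cells of a type and less RNA per cell cannot be told apart. Of 13 mast cell markers 2 were on the array, and 1 was measured, Gata2, a transcription factor that mast cells share with other cells, at 0.05 ± 0.15 (-0.03 with print-tip loess, and -0.13 at its second clone). Kit, the receptor of stem cell factor, was too dim to be measured. The defining mast cell proteases had no named probe here, nor had any of 3 basophil markers, so the part of these cells in the Hdc values was not tested. Of 10 markers of other leukocytes the 1 measured was Lyz2, the macrophage lysozyme gene, at -0.10 ± 0.15.

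Some markers of the main cell type of kidney cortex were measured, but whether the samples held only cortex was not tested. Of 14 proximal tubule markers 3 were measured, 2 with a positive and 1 with a negative difference and a median of 0.02 (-0.02 with print-tip loess). Lrp2, the endocytic receptor megalin, was at 0.02 ± 0.19 (-0.02 with print-tip loess), Miox, an inositol oxygenase gene, at 0.08 ± 0.18 and Gatm, of creatine synthesis, at -0.24 ± 0.27. Lrp2 and Miox were above background in all 12 measurements of both groups. Gatm was at 0.07, 0.31 and -0.74 in Menopausal 1, 2 and 3, against -0.06, -0.13 and 0.55 in Control 1, 2 and 3, so it was lowest in Menopausal 3 and highest in Control 3. BG072394 was highest in Control 3 and lowest in Menopausal 2, where Gatm was at 0.31. With print-tip loess BG072394 was highest in Control 3 (0.48) and lowest in Menopausal 3 (-0.47), the same 2 samples as those named for Gatm. BG072171 was lowest in Menopausal 3 and at 0.29 in both Control 2 and Control 3. In Control 3, Lrp2 was at 0.15 and Miox at -0.20, the lowest value of Miox. The part of tubule content in the Hdc values was not tested. Calb1 of the distal tubule, the only measured marker of 9 for later segments, was at -0.12 ± 0.19 at its brightest clone. Its other 3 clones were at -0.46, 0.15 and -0.29. Of 12 glomerular and vessel markers 2 were measured, Podxl of podocytes at 0.08 ± 0.16 and Emcn of endothelium at -0.17 ± 0.12 (-0.02 with print-tip loess).

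The share of spots above background ran from 16.5% to 76.8% over the channels. Each array had 24 to 418 abnormal spots, none of them a copy of an Hdc clone. The names of all probes rest on the order of spots given for the platform. Under it, different clones of 1 gene had correlated brightness (r = 0.532 over 3477 pairs of clones), against at most 0.054 in the 63 other orders tried. Probes of ribosomal protein genes averaged the 87.2 percentile of brightness, and at most the 57.4 percentile in those other orders. A table of log2 ratios that the authors also deposited matched the arrays better in the row order of the scanner tables. The median over its columns of the closest absolute r was 0.317 in that order, against 0.025 in the order used here. Why they differ was not tested.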

How the data were processed

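Two-colour arrays were made from amplified RNA of 6 kidney cortex samples (per the labels' protocols), and the scanner tables that the authors deposited hold raw spot and local background intensity in both channels, per the file headers. The authors also deposited a table of log2 ratios, normalized in a way not given in the sources used here. With its rows taken in the order of the scanner tables, all 12 of its columns resembled another array more than the one they are labelled with. All 12 of these closest correlations were negative, so its ratios may run the other way. No result uses it, and why it differs was not tested. Groups and dyes follow the labels of the scanner tables, whose recorded scan names hold 1 code for each cortex sample beside its dye and fit the title and dye order on 12 of 12 arrays. With limma 3.58.1 in R 4.3.3, spot medians were corrected by normexp (offset 50) and log2 ratios normalized by global loess, with weight 0 for abnormal spots and copies averaged. Probes above background by 2 SDs in at least 6 of 12 measurements of a group were kept (7683). A fit with a dye term gave 6 sample values, compared 3 against 3 with limma (eBayes with a trend, Benjamini-Hochberg threshold 0.05). For 106 probes without a value on every array, none of them Hdc, the F statistic is approximate. For each list up to 4 genes are named, first those whose groups do not overlap and then by size, each by its brightest probe, and for likeness the 5 highest r. Members, lists and the order of spots were chosen with earlier results of these data known. Of the probes 9191 have 1 symbol, updated through GRCm38.p6 gene identifiers for 9085. The fit was tested on simulated data.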

Additional observations from a re-analysis of the deposited data

Results flagged for a closer look

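Among the 6 arrays across groups, 1 ratio of BG072171 stood apart from the others. Menopausal 3 over Control 2 was at -0.95, while the other 5 lay from -0.43 to -0.29, and the gap to the nearest made up 0.78 of the whole range. This describes the spread among arrays and says nothing of the group difference. Of the 3 clones, BG072171 alone passed Dixon's limit, which chance passes in about 1 of 20 groups of independent values. The 6 ratios share samples, so that rate does not hold for them and the limit serves only as a flag. From the sample values and the dye term, the fit gave -0.76 for this array. With print-tip loess the same ratio was -0.91, the next lowest was -0.61, and the gap made up 0.43 of the range, under that limit. For CK335059, Menopausal 3 over Control 2 was then at -0.41, with the others from 0.026 to 0.25 and a gap of 0.66 of the range, past it. The array of Control 2 with Menopausal 3 had 418 abnormal spots, the most of any array, though none was a copy of an Hdc clone. Without this array the difference of BG072171 was -0.41.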

How the results depend on the processing

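BG072394 and BG072171 were lower in menopausal samples in 32 of 32 settings. Settings that do not alter the ratios of the arrays across groups return the same differences by construction. Leaving out an array within a group and the replicate block are among these. Without background subtraction BG072394 was at -0.26 and BG072171 at -0.14. Leaving out 1 sample or array gave -0.76 to -0.55 for BG072394, -0.55 to -0.35 for BG072171 and -0.16 to 0.20 for CK335059, which was below 0 in 8 of 32 settings. With a replicate block the differences were -0.66, -0.47 and 0.02. Deviations of same-numbered samples correlated at -0.425, -0.458 and -0.057. Same-numbered samples never shared an array, and whether they share more than a number was not tested. The count of probes called was 0, with 0 under the replicate block, and 0 to 1 when 1 sample or array was left out, the 1 being without Menopausal 3. The dye term of BG072394 was -0.34 with median centring and passed. That of BG072171 changed sign to 0.017 with plain subtraction, 0.031 with scaling between arrays and 0.010 with the second copy only, and ran from -0.081 to 0.013 when 1 sample or array was left out (0.0064 without Control 1, 0.013 without Control 2). That of CK335059 passed at 0.26 with array weights, and ran from 0.12 to 0.38 when 1 was left out, passing without Control 2 and without either of 2 arrays of Control 2. The causes were not tested. The F tests within groups stayed on the same side of the threshold in all 30 settings each. Having 3 samples per group on 12 arrays limits the precision. How signal over background bears on it was not tested. The standard error of the group difference, which rests on the spread between samples, was the largest of the 3 clones for CK335059.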
